A study of Glycine max with 36 samples.

Results

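The array carried 27 probes for 4 genes of the soybean flavonoid pathway, of 19200 probes in all and of 527 genes that have a probe to themselves by name. They were chosen by name: every probe whose annotation lists a single gene called F3H, DFR1, CHR1 or CHS with a number, and CHS1 was the only CHS gene with such a probe. CHS1 had 11 probes, F3H 9, CHR1 5 and DFR1 2, and all 27 had enough values to be tested. Many of these probes are repeat spots of one cDNA. By shared accession entries the 27 probes come from 12 cDNAs, and spots of one cDNA are not independent measurements of the gene. Grouped more strictly, by an identical accession entry, they form 14 sets of spots, 4 of which hold 4 spots each and 1 of which holds 2.

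RNA came from the 3 leaflets, pooled, of the primary trifoliate leaf in the soybean cultivar Williams 82, grown in a greenhouse at 25 °C with 16 h of daylength for about 2 weeks. Leaflets sprayed with atrazine, leaflets sprayed with bentazon and leaflets sprayed with water were collected 1, 2, 4 and 8 h later. The labels give 22 to 25 mM for the herbicides together and 1% Herbimax adjuvant for the water spray. Adjuvant and dose therefore cannot be told apart from the herbicides. The 12 RNA groups were compared on 36 two-colour arrays in a closed loop, with 1 loop for each of 3 biological replicates (n = 3 throughout). No array joined atrazine and water RNA at 1 or 8 h, or bentazon and water RNA at 2 or 4 h. Those comparisons were reached only through other arrays of the loop. The submitters' design text also speaks of technical repeats with dyes exchanged. Yet each hybridised pair of RNAs stands on 1 array in each loop here, with the dyes the same way round each time. Whether a deposited value is a mean of such repeats is not given in the sources used here. Whether the 3 biological replicates came from separate sowings or days is not given either. The p-values therefore measure the spread between these samples.

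Chalcone synthase, which CHS1 encodes, carries out the first committed step of flavonoid synthesis by joining coumaroyl-CoA with malonyl-CoA. Chalcone reductase (CHR1) works together with it and diverts part of the product towards the deoxy-isoflavonoids, from which legumes make daidzein and, in soybean, the glyceollin phytoalexins. F3H, flavanone 3-hydroxylase, turns flavanones into dihydroflavonols, the shared precursors of flavonols, anthocyanins and proanthocyanidins. DFR1, dihydroflavonol reductase, takes these on towards anthocyanins and proanthocyanidins. Atrazine and bentazon both block electron transport at photosystem II.

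Each value is a log2 difference between RNA groups from the deposited log ratios, which were taken as log2. The sources used here do not settle which channel is the numerator. Values were therefore signed so that the probe of PDR12, an ABC transporter gene, is positive for bentazon against water at 2 h. A positive value lies on the PDR12 side and a negative value on the opposite side, and which side is the higher transcript level is not known. Fold sizes are given without a direction. Positive values correspond to a higher level in the first-named group only if the ratios follow the word order of the array titles. Only ratios were available, so the leaf tissue could not be checked by marker levels and genes cannot be compared in level.

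Over all 27 probes, atrazine against water gave 10 calls at 4 h, 2 on the PDR12 side and 8 on the other. That is 37.0% of the members, where 17.9% of the 17062 probes tested were called in the same comparison, 9.14% and 8.79% by side. At 8 h atrazine gave 8 calls, 1 and 7, or 29.6% against 11.7% of all probes (5.64% and 6.05% by side). Bentazon gave 8 calls at 4 h, all opposite to PDR12 (29.6% against 13.4%, of which 6.41% on that side). At 8 h it gave 10, 2 and 8 (37.0% against 16.3%, by side 8.83% and 7.43%). Counted by cDNA, the calls came to 4 and 3 of 12 for atrazine at 4 and 8 h, and to 2 and 4 of 12 for bentazon. At 1 and 2 h the limma model called 0 members against water, against 3.4% and 5.24% of all probes for atrazine and 3.35% and 7.58% for bentazon. At an unadjusted p under 0.05 the numbers were 0 and 7 for atrazine and 1 and 3 for bentazon. Atrazine against bentazon gave 1 and 2 member calls at 4 and 8 h, where 10.8% and 6.25% of all probes were called. With array weights these were 7 and 12 members, and the calls over all probes came to 4219 and 4729, against 1849 and 1066 without weights. The 4 h call lay on the PDR12 side (4.99% of all probes), and those at 8 h 1 on each (3.14% and 3.11%). It gave 0 at 1 and 2 h in the limma model, with 5.84% and 9.62% of all probes, and 1 and 2 members had an unadjusted p under 0.05.

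Most of these calls were F3H. Of its 9 probes, 8 were called on the side opposite to PDR12 at 4 h under each herbicide, and 7 under atrazine and 8 under bentazon at 8 h. A single CHR1 cDNA was called on the PDR12 side at 4 and 8 h under atrazine and at 8 h under bentazon. The 11 CHS1 probes gave 1 call against water over all 8 comparisons, and the 2 DFR1 probes gave 1. No member was called against water at 1 or 2 h.

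**Figure D1:**
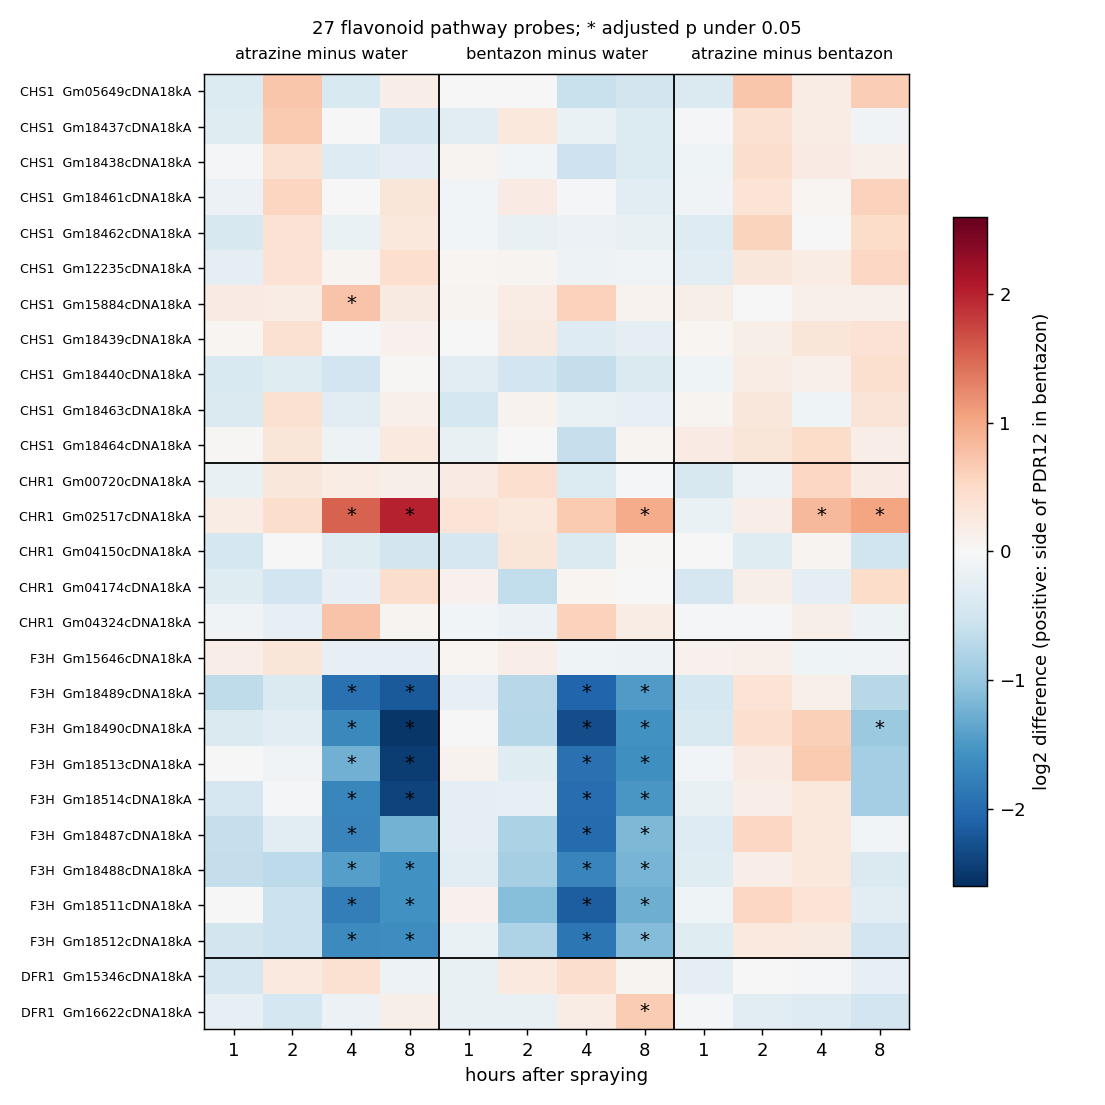
Heat map of the log2 difference of the 27 probes (rows, grouped by gene and cDNA) for atrazine minus water, bentazon minus water and atrazine minus bentazon at 1, 2, 4 and 8 h (columns). Colour gives the size, from -2.6 to 2.6, and an asterisk marks an adjusted p under 0.05; the called cells sit in 8 F3H rows, the CHR1 row Gm02517cDNA18kA, 1 CHS1 cell and 1 DFR1 cell.

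CHS1, the entry enzyme, gave few calls against water. The gene table of the Glycine_max_v4.0 assembly lists 17 CHS genes, 1 of them a pseudogene, and 9 lie on the chromosome of CHS1. A cDNA spot can bind transcripts of such relatives, so the values belong to CHS1 as annotated and not to it alone. In the 4-spot set of Gm18439cDNA18kA, atrazine against water at 8 h was -0.52, -0.06 and 0.97 in replicates 1, 2 and 3, with a model value of 0.13 ± 0.31 (SE, 95% interval -0.50 to 0.76). The replicates lie on both sides of 0. Bentazon against water at 8 h was -0.34, 0.01 and -0.25 in that set, with a model value of -0.19 ± 0.23 (interval -0.65 to 0.27). In the 4-spot set of Gm18437cDNA18kA the same values were 0.11 ± 0.35 for atrazine and -0.29 ± 0.26 for bentazon. None of the 11 probes was called for bentazon against water or for atrazine against bentazon at any time. The 8 h intervals of the 2 sets reach 0.82 under atrazine and -0.82 under bentazon.

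Gm15884cDNA18kA gave the single CHS1 call against water, at 4 h under atrazine. Replicates 1 and 3 gave 0.97 and 0.79, and the model value over all arrays was 0.74 ± 0.22 (adjusted p = 0.0163), with the loop of replicate 2 incomplete. The call did not hold without replicate 1 (0.63, adjusted p = 0.31) or without replicate 3 (0.71, adjusted p = 0.0516). This spot ran apart from the others of its gene. Its correlation with the other CHS1 spots over the arrays had a median of -0.25, while the lead probe Gm18439cDNA18kA had a median of 0.78 with the others.

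Between 1 and 8 h in atrazine leaflets, 9 of the 11 CHS1 probes were called, 8 on the PDR12 side and Gm15884cDNA18kA on the other. In that comparison 21 of the 27 members were called, 12 and 9, where 33.3% of all probes were called (17.4% and 15.9% by side). The 2 sets of 4 spots changed by 0.96 ± 0.26 (Gm18437cDNA18kA) and 1.05 ± 0.23 (Gm18439cDNA18kA), with adjusted p = 0.00435 and 0.000515. The replicates of Gm18437cDNA18kA were 0.43, 0.18 and 2.27, and those of Gm18439cDNA18kA 0.77, 0.24 and 2.14, replicate 3 standing far above the others in both. Without replicate 3 the value of the Gm18437cDNA18kA set was 0.30 and its call was lost (adjusted p = 0.261), and that of the Gm18439cDNA18kA set was 0.50 (adjusted p = 0.0416). The lead probe alone had 0.81 ± 0.28 (adjusted p = 0.0234) over all arrays and 0.19 without replicate 3 (adjusted p = 0.596), and its call was also lost with scaled arrays (0.146). The third replicate also set the atrazine value apart from bentazon at 8 h in the Gm18437cDNA18kA set, with 1.44 against -0.05 and -0.21 in replicates 1 and 2.

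Both sets of 4 CHS1 spots also lay on the PDR12 side over time in the other treatments. From 1 to 8 h the Gm18439cDNA18kA set gave 1.13, 0.56 and 0.67 in bentazon leaflets and 1.34, 0.54 and 0.36 in water leaflets. All 6 values are above 0, but the model values of 0.79 ± 0.36 and 0.75 ± 0.41 were not called (adjusted p = 0.15 and 0.376). The change between 1 and 8 h under atrazine, less that in water, was 0.30 ± 0.39 and was not called either.

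**Figure D2:**
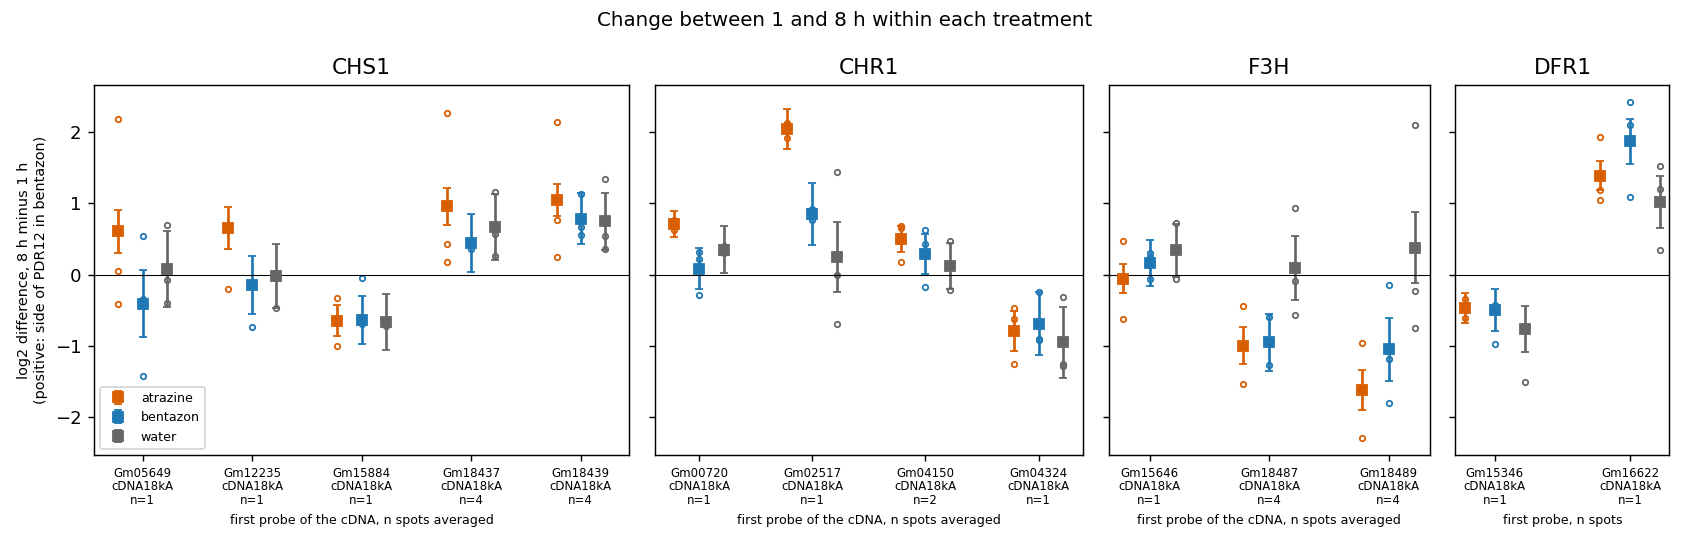
Change from 1 to 8 h (log2 difference, positive on the PDR12 side) within atrazine, bentazon and water leaflets, for each set of spots of one cDNA. Squares with bars are the model value ± SE and open circles the 3 replicate loops where complete; in CHS1 the atrazine circles of replicate 3 lie above 2 in 3 sets, and DFR1 Gm16622cDNA18kA is positive in all 3 treatments.

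CHR1, the chalcone reductase, was called against water in 1 of its 5 probes, Gm02517cDNA18kA. In replicates 1, 2 and 3 the atrazine difference was 1.61, 1.83 and 1.14 after 4 h. After 8 h it was 2.38, 2.44 and 1.16, and all 6 values are above 0. The model values were 1.53 ± 0.28 (2.88-fold, adjusted p = 0.000169) and 1.99 ± 0.38 (3.98-fold, adjusted p = 0.000433). Bentazon gave 1.24, 0.57 and 0.24 by replicate after 4 h, and 0.90, 1.94 and 0.05 after 8 h. The model gave 0.69 ± 0.38 at 4 h, not called, and 0.97 ± 0.28 at 8 h (1.95-fold, adjusted p = 0.0174). The replicates of bentazon at 8 h spread from near 0 to almost 2.

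Atrazine and bentazon differed for this spot at both late times. Arrays that held both RNAs gave 0.51, 1.46 and 1.13 after 4 h. After 8 h they gave 1.61, 0.70 and 1.33, and all 6 lie on the PDR12 side. Atrazine minus bentazon came to 0.84 ± 0.28 at 4 h (adjusted p = 0.0477) and 1.03 ± 0.28 at 8 h (adjusted p = 0.0231). The calls at 4 h and 8 h were both lost without replicate 1 (adjusted p = 0.129 and 0.347) and without replicate 3 (0.136 and 0.114), and the 4 h call also without replicate 2 (0.198) and with the replicate number as a block (0.0593). For bentazon at 8 h the call was lost without replicate 1 (0.126) and without replicate 2 (value 0.48, adjusted p = 0.32). Scaling the arrays to one spread ended the bentazon call at 8 h (0.0753) and the difference between herbicides at 4 h (0.138). The atrazine calls against water held without any single replicate.

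In time, the atrazine values of Gm02517cDNA18kA lay further from water at 1 h at each later harvest. Relative to water at 1 h its values in atrazine leaflets were 0.19, 0.52, 1.62 and 2.24 at 1, 2, 4 and 8 h, those in bentazon leaflets 0.36, 0.33, 0.78 and 1.21, and those in water leaflets 0.07, 0.09 and 0.25 at 2, 4 and 8 h. The change from 1 to 8 h in atrazine leaflets was 2.10, 1.91 and 2.13 by replicate and 2.05 ± 0.28 in the model (adjusted p = 8.44e-07). It was 0.86 ± 0.44 in bentazon and 0.25 ± 0.50 in water leaflets, neither called. The atrazine effect at 8 h exceeded that at 1 h by 1.80 ± 0.48 (adjusted p = 0.0282), the single CHR1 call in that comparison, in which 3.58% of all probes and 5 of the 27 members were called, 1 on the PDR12 side and 4 opposite (1.37% and 2.21% of all probes). That call was lost without replicate 1 (0.308), without replicate 2 (0.215) and with scaled arrays (0.106).

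The other 4 CHR1 probes were not called against water under either herbicide. Gm04324cDNA18kA had its largest value under atrazine at 4 h, 1.06, 1.03 and 0.13 by replicate, and missed the threshold (0.74 ± 0.28, adjusted p = 0.0645). Gm00720cDNA18kA, the lead probe, gave 0.10, 0.14 and 0.24 under atrazine at 8 h and 0.06, -0.12 and -0.09 under bentazon. From 1 to 8 h in atrazine leaflets, 3 CHR1 probes were called on the PDR12 side, Gm02517cDNA18kA, Gm00720cDNA18kA and Gm04150cDNA18kA. Gm04324cDNA18kA was called on the other (-0.79 ± 0.28, adjusted p = 0.0291). Of all probes, 33.3% were called there, 17.4% and 15.9% by side. The lead probe changed by 0.62, 0.76 and 0.75 in that comparison, a narrow spread (0.71 ± 0.18, adjusted p = 0.00264). Gm04324cDNA18kA also lay below 0 from 1 to 8 h in bentazon leaflets (-0.69 ± 0.44) and in water leaflets (-0.95 ± 0.50), without a call. Gm04150cDNA18kA gave 1.22 in bentazon leaflets, where it was called, and 0.75 ± 0.35 in water leaflets, without a call. The lead probe gave 0.08 in bentazon leaflets and 0.35 ± 0.32 in water leaflets, neither called.

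These CHR1 spots have little in common. Pairs from different CHR1 cDNAs correlated between -0.48 and 0.42 over the 36 arrays, with a median of 0.01. Even the 2 spots with one accession entry, Gm04150cDNA18kA and Gm04174cDNA18kA, correlated at 0.11, and from 1 to 8 h in bentazon leaflets they gave 1.22 and -0.64. RefSeq lists 6 CHR genes in the Glycine_max_v4.0 assembly. Whether a spot bound another CHR transcript was not tested.

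**Figure D3:**
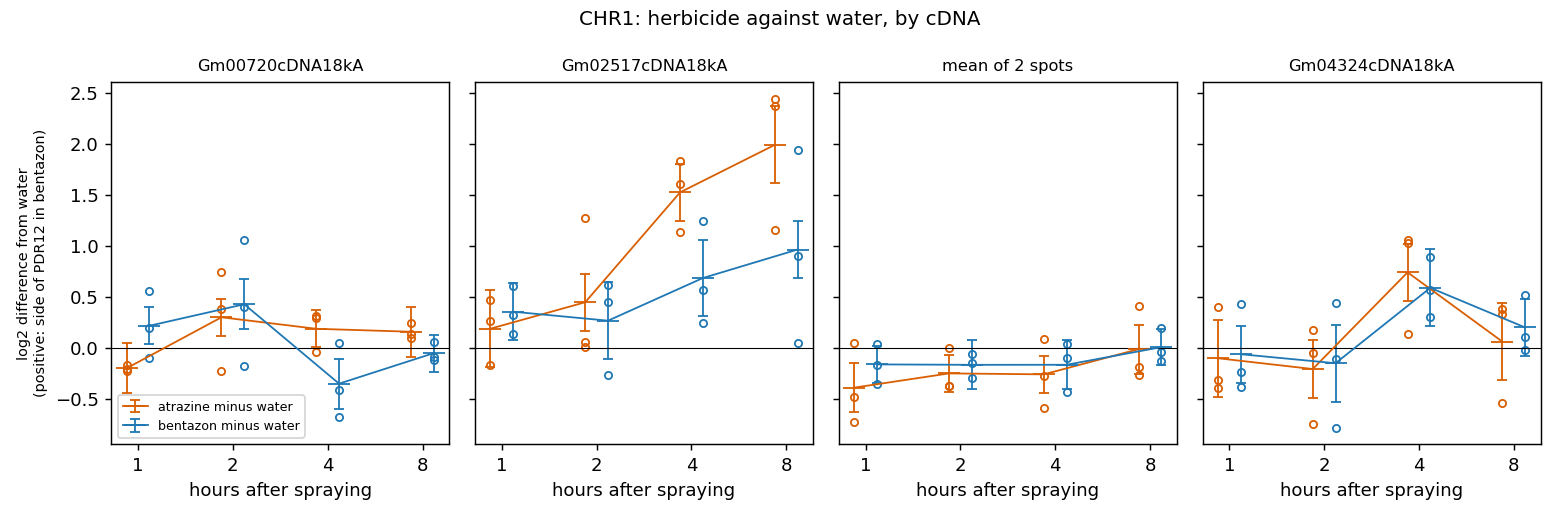
Log2 difference from water (positive on the PDR12 side) of the 4 CHR1 cDNAs at 1, 2, 4 and 8 h for atrazine (orange) and bentazon (blue). Bars are the model value ± SE and open circles the 3 replicate loops; Gm02517cDNA18kA stands at 1.99 under atrazine at 8 h, and the other 3 panels stay within 1.1 of 0.

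In each comparison with water at 4 and 8 h, the largest difference among the 4 genes lay in a set of F3H spots. This does not hold for every F3H set. Under atrazine at 8 h, Gm02517cDNA18kA of CHR1 (1.99) lay further from water than the F3H set of Gm18487cDNA18kA (-1.51). The F3H spots fall into 2 cDNAs with 4 spots each, called here the first (Gm18487cDNA18kA and 3 more) and the second (Gm18489cDNA18kA and 3 more). A 9th spot, Gm15646cDNA18kA, shares an accession entry with the second cDNA. At 4 h under atrazine the first cDNA was -1.88, -1.92 and -1.15 in replicates 1, 2 and 3 and the second -1.92, -1.95 and -1.08. Every replicate of both lies on the side opposite to PDR12. The model gave -1.65 ± 0.26 and -1.65 ± 0.28, or 3.13-fold and 3.14-fold, with adjusted p = 1.7e-05 and 6.54e-05.

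Bentazon at 4 h gave differences of similar size with a wider spread. The first cDNA was -2.31, -2.77 and -0.71 and the second -2.12, -3.10 and -0.75. Model values were -1.93 ± 0.35 (3.81-fold, adjusted p = 0.000249) and -1.99 ± 0.38 (3.98-fold, adjusted p = 0.000525). Atrazine minus bentazon at 4 h was 0.28 ± 0.26 (95% interval -0.24 to 0.80) for the first and 0.34 ± 0.28 (-0.23 to 0.91) for the second, and neither was called. These intervals do not show that the herbicides acted alike.

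At 8 h under atrazine the second cDNA lay further from water than the first. The first was -2.13, -1.85 and -0.53 and the second -2.84, -3.22 and -1.09. The model values were -1.51 ± 0.35 (2.84-fold, adjusted p = 0.00324) and -2.38 ± 0.38 (5.21-fold, adjusted p = 5.87e-05). All 3 replicates had the second cDNA further from water, by -0.71, -1.37 and -0.56. With Gm15646cDNA18kA counted into the second cDNA, as the shared entry has it, the value over 5 spots was -1.95, nearer to the -1.51 of the first. Spots within each cDNA stayed together, from -1.61 to -1.24 in the first and from -2.53 to -2.19 in the second, with no overlap. No test was made of this difference between cDNAs.

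Under bentazon at 8 h the first cDNA was -1.03, -1.79 and -0.75 and the second -1.34, -2.20 and -1.04. Model values were -1.19 ± 0.26 (2.29-fold, adjusted p = 0.00207) and -1.53 ± 0.28 (2.88-fold, adjusted p = 0.000485). The arrays that carried bentazon and water RNA together gave -1.17, -1.93 and -0.89 for the first and -1.37, -2.31 and -1.12 for the second. Likewise the arrays of atrazine and water at 4 h gave -1.74, -1.78 and -1.01 for the first and -1.90, -1.85 and -1.0 for the second. Both sets of arrays also enter the model, so they are not separate evidence. Atrazine minus bentazon at 8 h was -0.31 ± 0.26 for the first cDNA (interval -0.83 to 0.21). For the second it was -0.85 ± 0.28 (interval -1.43 to -0.28), with replicates of -1.50, -1.02 and -0.05, and it missed the threshold after adjustment (adjusted p = 0.065). Of its spots, Gm18490cDNA18kA alone was called (-0.96 ± 0.28, adjusted p = 0.0374).

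At 2 h, before any call, the first cDNA was -0.85, -0.18 and -0.53 under atrazine and -0.88, -1.02 and -0.69 under bentazon. All 6 lie on the side opposite to PDR12, with model values of -0.52 ± 0.26 and -0.86 ± 0.35 (adjusted p = 0.275 and 0.136). The second cDNA did not show this as clearly. Second minus first was 0.22, 0.39 and 0.31 by replicate under atrazine and 0.22, 0.64 and 0.23 under bentazon. On the arrays of atrazine and water at 2 h the second cDNA gave -0.65, 0.11 and -0.31, on both sides of 0.

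Replicate 3 had the smallest F3H value in both cDNAs in all 4 comparisons with water at 4 and 8 h. Leaving out replicate 3 ended none of those calls. Without replicate 1 the first cDNA was no longer called for atrazine at 8 h (-1.19, adjusted p = 0.151), and without replicate 2 it was -1.33 (0.0692). Without replicate 2 the second cDNA lost its call for bentazon at 4 h (-1.44, 0.0601), and both lost theirs for bentazon at 8 h (-0.89 and -1.19, adjusted p = 0.0975 and 0.051). The atrazine call at 4 h held for both cDNAs without any single replicate, and that of the second cDNA held at 8 h too. No F3H call turned its direction when a replicate was left out.

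**Figure D4:**
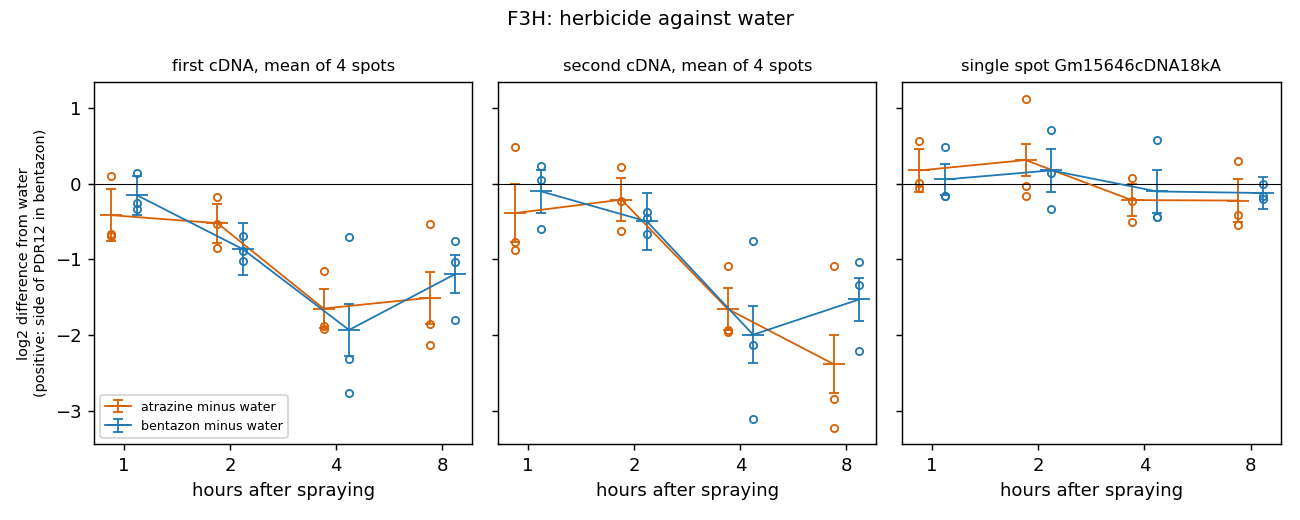
Log2 difference from water (negative on the side opposite to PDR12) of the 2 F3H cDNAs, each the mean of 4 spots, and of the single spot Gm15646cDNA18kA, at 1, 2, 4 and 8 h for atrazine (orange) and bentazon (blue). Bars are the model value ± SE and open circles the 3 replicate loops. The model values of both cDNAs lie between -1.19 and -2.38 at 4 and 8 h, and those of the single spot between -0.22 and 0.31. Some replicate circles lie outside these ranges.

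The course over time is given as a description. Relative to water at 1 h, the second F3H cDNA was -0.39, -0.19, -0.67 and -2.01 in atrazine leaflets at 1, 2, 4 and 8 h and -0.10, -0.48, -1.01 and -1.15 in bentazon leaflets. Water leaflets were at 0.02, 0.99 and 0.38 at 2, 4 and 8 h. At 4 h water itself stood on the PDR12 side of its 1 h value (0.99 ± 0.51). This change was not among the comparisons tested. The herbicide difference from water at 4 h was larger than that of the sprayed leaflets from water at 1 h. The first cDNA had 0.07, 0.57 and 0.09 in water, with an SE of 0.46 at 4 h. How much of the 4 h difference lies in the water leaflets was not tested. From 1 to 8 h in atrazine leaflets the first cDNA changed by -1.54, -1.02 and -0.44 (-1.0 ± 0.26, adjusted p = 0.00269) and the second by -2.30, -1.59 and -0.96 (-1.62 ± 0.28, adjusted p = 3.4e-05). The call of the first was lost without replicate 1 (adjusted p = 0.123). In bentazon leaflets the model values were -0.95 ± 0.40 and -1.05 ± 0.44, neither called, and 1 F3H spot of 9 was called, among 4 members in all (3 on the PDR12 side and 1 opposite), where 13.9% of all probes were called (7.71% and 6.21% by side). In water leaflets no member was called by limma, with 1.68% of all probes, and 6 members had an unadjusted p under 0.05.

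For the second F3H cDNA the herbicide effect at 8 h differed from that at 1 h. The difference was -1.99 ± 0.48 for atrazine (adjusted p = 0.0151) and -1.43 ± 0.38 for bentazon (adjusted p = 0.0274). It was -1.09 ± 0.44 and -1.04 ± 0.35 for the first, neither called. For the second cDNA the replicates were -2.07, -3.70 and -0.21 under atrazine and -1.58, -2.26 and -0.44 under bentazon. Both calls ended without replicate 1 (adjusted p = 0.178 and 0.322) or without replicate 2 (0.494 and 0.255), and with scaled arrays the adjusted p was 0.0532 and 0.0531. For bentazon, 3 members, all F3H spots, were called in this comparison, where 4.99% of all probes were, 2.18% on the side opposite to PDR12.

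The single spot Gm15646cDNA18kA did not follow the other 8. It was -0.51, -0.22 and 0.08 under atrazine at 4 h and -0.42, 0.29 and -0.55 at 8 h, and -0.44, -0.44 and 0.58 and -0.21, 0.00 and -0.16 under bentazon at those times. Its model values ran from -0.22 to 0.31 over all 8 comparisons with water, and it was called in none of the 17 comparisons. Its median correlation with the other F3H spots was 0.15, while Gm18512cDNA18kA, the lead probe of the gene, had a median of 0.90. The spot shares an accession entry with the second cDNA but also carries a second entry of its own. Which sequence lies on it was not tested.

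**Figure D5:**
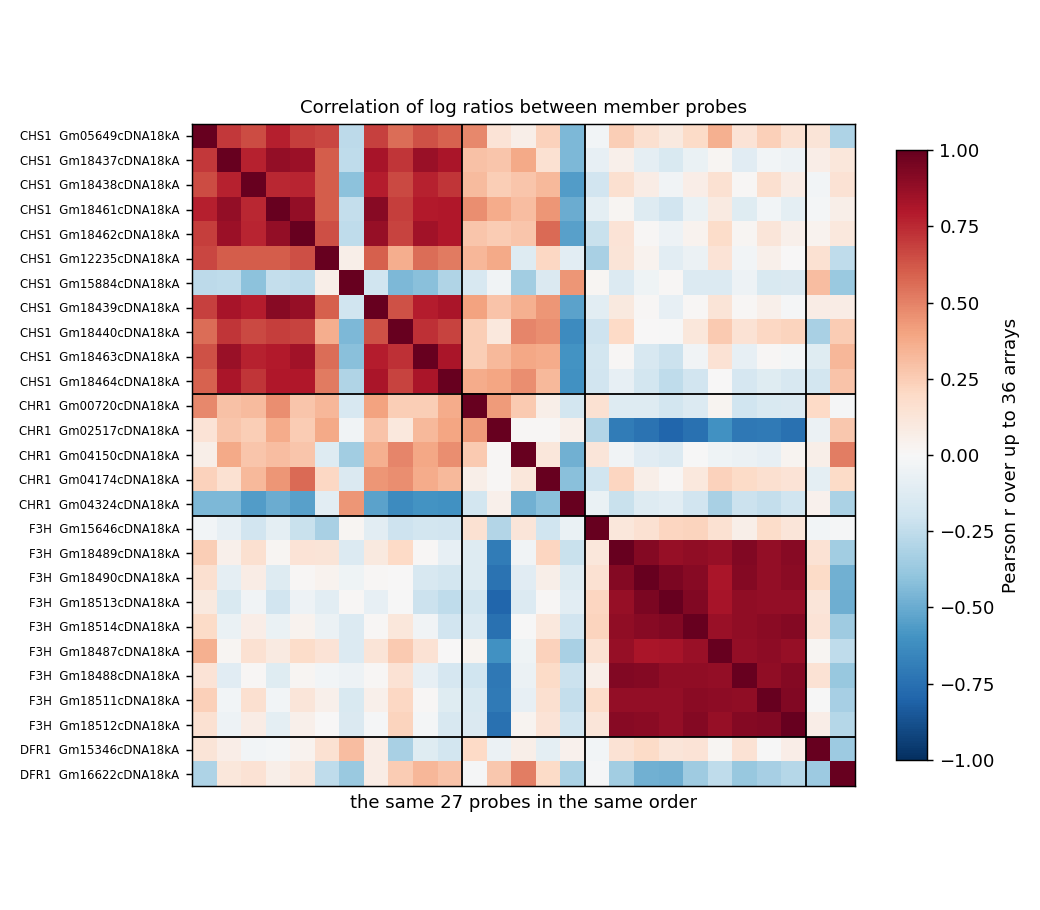
Pearson correlation of the log ratios between all pairs of the 27 probes over up to 36 arrays, grouped by gene (CHS1, CHR1, F3H, DFR1). The 8 spots of the 2 F3H cDNAs and most CHS1 spots form blocks of high correlation, while Gm02517cDNA18kA of CHR1 is negative against the F3H block and Gm15646cDNA18kA stays pale.

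DFR1 gave 1 call against water. Gm16622cDNA18kA, its lead probe, was 0.48, 0.76 and 0.72 under bentazon at 8 h, all on the PDR12 side, with a model value of 0.65 ± 0.21 (1.57-fold, adjusted p = 0.0285). This is the smallest called difference from water among the members. The call did not hold without replicate 1, 2 or 3 (adjusted p = 0.145, 0.189 and 0.0523), nor with scaled arrays (0.0516). On the arrays that carried both RNAs the values were 0.36, 0.69 and 0.32. Under atrazine at 8 h the probe was -0.08, 0.07 and 0.45, and atrazine minus bentazon was -0.50 ± 0.21, with replicates of -0.56, -0.69 and -0.27, not called (adjusted p = 0.152).

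Gm16622cDNA18kA at 8 h lay on the PDR12 side of its 1 h value in every treatment. Atrazine leaflets gave 1.93, 1.19 and 1.04 and bentazon leaflets 2.43, 2.10 and 1.08. Water leaflets gave 1.52, 1.20 and 0.34. All 9 values are above 0. The model called it in atrazine (1.39 ± 0.21, adjusted p = 3.42e-06) and bentazon leaflets (1.87 ± 0.32, adjusted p = 0.000177), and not in water leaflets (1.02 ± 0.37, adjusted p = 0.152). The change in bentazon leaflets less that in water was 0.85 ± 0.28 and not called (adjusted p = 0.0688), with all 3 replicates above 0 (0.91, 0.90 and 0.74). Without replicate 1 the bentazon call over time ended (adjusted p = 0.0692).

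Gm15346cDNA18kA, the other DFR1 probe, had 34 of 36 values and was called in none of the 17 comparisons. From 1 to 8 h it lay on the opposite side to its partner in atrazine (-0.46 ± 0.21), bentazon (-0.50 ± 0.29) and water leaflets (-0.76 ± 0.32). The 2 probes correlated at -0.36 over the arrays. The assembly lists 2 DFR genes.

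Median correlations between probes of different genes ran from -0.13 (CHR1 and F3H) to 0.28 (CHR1 and CHS1), with some pairs well outside. The CHR1 set of Gm04150cDNA18kA correlated with the CHS1 sets of Gm18437cDNA18kA and Gm18439cDNA18kA at 0.51 and 0.61. Gm04324cDNA18kA of CHR1 had -0.56 and -0.66 with them. The CHR1 spot Gm02517cDNA18kA and the F3H cDNAs ran in opposite directions, at r = -0.72 with the first and -0.77 with the second over 36 arrays. The lead probes correlated at 0.40 between CHR1 and CHS1 and at -0.29 between F3H and DFR1. These arrays share RNA within each loop, so the points are not independent and the values are descriptions. By the same measure, over at least 30 shared arrays and 683 candidates, the F3H lead was most like AMS1 (0.87), CYP93E1 (0.86) and COPZ1 (0.85). CYP93E1 encodes a cytochrome P450 of triterpenoid saponin synthesis. The DFR1 lead was most like the ribosomal protein genes RPS6 (0.88) and RPS13 (0.87) and the kinase gene PPCK2 (0.87). For the CHR1 lead the nearest were SAT1 (0.77), ARF (0.58) and UGT1 (0.57). That lead, Gm00720cDNA18kA, was not called against water and had a median correlation of 0.16 with the other CHR1 spots. Its neighbours therefore do not stand for Gm02517cDNA18kA. For the CHS1 lead they were STP1 (0.69), DREB3 (0.64) and the histone gene H4 (0.64).

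Other genes of the pathway were read from lists chosen with earlier results of these data known. Upstream, the general phenylpropanoid list held 6 probes of 3 genes for 4-coumarate CoA ligase, which supplies the coumaroyl-CoA that chalcone synthase uses. Under atrazine at 1 h 4 of these 6 were called opposite to PDR12, the 4CL3 probe (-1.55) and all 3 of 4CL4 (-1.91 to -1.58), with a list median of -1.57 against -0.03 over all probes tested. That is 66.7% of the list, against 3.4% of all probes. At 2, 4 and 8 h under atrazine, and at all 4 times under bentazon, 1 of the 6 was called, opposite to PDR12 and a 4CL4 probe each time. One call is 16.7% of so short a list. Nothing is read from it, as 5.24% to 17.9% of all probes were called under atrazine at those times and 3.35% to 16.3% under bentazon. At 1 h none of the 27 members was called under either herbicide.

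The list of other flavonoid and isoflavonoid genes held 44 probes of 13 genes from 26 cDNAs. Under atrazine at 8 h 10 of the 44 were called, 1 on the PDR12 side and 9 opposite, and under bentazon at 8 h 7, 1 and 6, with list medians of -0.19 and -0.44 against 0.03 and 0.02 over all probes tested. The atrazine share was 22.7% of the list, against 11.7% of all probes. The bentazon share was 15.9%, near the 16.3% of all probes. FLS1, flavonol synthase, uses the dihydroflavonols that F3H makes. It was called opposite to PDR12 in 3 of 5 probes for atrazine at 8 h (median -0.90) and in 5 of 5 for bentazon (median -0.88). Of all probes, 6.05% and 7.43% were called on that side at 8 h under atrazine and bentazon. The counts by gene are of probes, which can be repeat spots of one cDNA. IFR2, an isoflavone reductase gene, had 4 of 5 probes called opposite to PDR12 for atrazine at 8 h (median -1.12), and CHI1A, chalcone isomerase, 2 of 8. At 4 h 1 of the 44 was called under atrazine, on the PDR12 side, and 6 under bentazon, 1 and 5. These are 2.27% of the list, against 17.9% of all probes, and 13.6%, near the 13.4% of all probes. IFS2, isoflavone synthase, changed from 1 to 8 h in atrazine leaflets in 7 of 7 probes, all on the PDR12 side (median 1.64). In that comparison 33.3% of all probes were called, 17.4% on the PDR12 side, and 47.7% of the list. These 7 probes come from 4 cDNAs, and IFS2 was not called against water at any time.

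The 3 arrays of a type matched each other unevenly, with pairwise correlations over all probes from -0.29 to 0.79. The lowest belongs to water at 1 h against water at 2 h, replicates 2 and 3. Every comparison above draws on the whole loop, these arrays included, and values without a replicate stand beside the results they changed. Array medians lay between -0.05 and 0.05, and 16648 to 18484 probes had a value on each array. Precision is limited by the number of arrays.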

How the data were processed

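The deposited table holds 1 log2 ratio per probe and array for 36 two-colour arrays, made by the authors from aminoallyl-labelled total RNA, per the labels' protocols. How background was corrected and ratios were normalized, the log base and the numerator were not stated in those labels. Fold sizes hold only if the values are log2. Intensities were not used here. The test took the 17062 probes that had 2 or more values for every array type, and 12843 of them were complete. One linear model per probe (11 RNA differences and 1 dye term) was fitted to all arrays, and contrasts were solved exactly where values were missing. Each RNA group stands on 2 arrays of its loop, yet this model treats the 36 arrays as independent. Generalised least squares, run as an alternative, allowed for shared extracts with a variance ratio of 0.21. limma 3.58.1 (R 4.3.3) moderated the variances, with 7.56 prior degrees of freedom added to 24 residual ones. Adjusted p is Benjamini-Hochberg over all tested probes per comparison, and calls were made at 0.05. Standard errors are the model's, and replicate values come from solving each loop alone. Values read from the arrays that held both RNAs carry no dye correction, and the same arrays enter the model. Spots with an identical accession entry were averaged on each array and fitted with all other probes; this and the cDNA counts were added after seeing the data. Gene symbols come from the array annotation, checked against the Glycine_max_v4.0 gene table.

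The members and gene lists were chosen with earlier results of these data known. PDR12 was chosen for the sign with its values known. All 27 members are named or counted. The lead probe of a gene has the most values, then the highest median correlation with the gene's other probes. For likeness, the 3 genes with the highest Pearson r were named. For pairing of arrays by replicate number, the median correlation of deviations was 0.01, and the lowest -0.43. Both RNAs on an array come from the same replicate, so an effect shared by a whole replicate cancels in the ratio. These correlations therefore cannot show whether the replicates differed. Alternatives changed the array scale, dye term, weights, missing-value filter, variance prior, replicate block, shared-extract variance, single loops, direct arrays and replicates. Figures used matplotlib 3.10.9 in Python 3.11.15.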

Additional observations from a re-analysis of the deposited data

Results flagged for a closer look

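These results were picked out because the effect of a herbicide differed between the herbicides, or between 8 h and 1 h, in the limma model itself. The CHR1 spot Gm02517cDNA18kA differed between atrazine and bentazon by 0.84 at 4 h and 1.03 at 8 h, and its atrazine effect was larger at 8 h than at 1 h by 1.80. Of the F3H spots, Gm18490cDNA18kA differed between atrazine and bentazon by -0.96 at 8 h. Its atrazine and bentazon effects differed between 8 h and 1 h by -2.15 and -1.58. For Gm18511cDNA18kA these differences in time were -1.56 and -1.38, and for Gm18513cDNA18kA -2.49 and -1.68. For Gm18514cDNA18kA the atrazine difference in time was -1.97. Gm18490cDNA18kA, Gm18513cDNA18kA and Gm18514cDNA18kA are spots of the second F3H cDNA and Gm18511cDNA18kA is one of the first, so these are fewer than 8 independent results.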

How the results depend on the processing

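Of 10 called values of the lead probes and 29 called values of the spot sets, 0 changed direction under any alternative run on them. Calls were lost, however. Lead-probe calls were lost in 5, 2 and 2 cases without replicate 1, 2 and 3, 3 with each loop solved alone and 2 with scaled arrays. Array weights, no dye term and the mean of the gene's probes each lost 1, and generalised least squares 0. Spot-set calls were lost in 9 cases with scaled arrays, 5 with array weights, 2 without a dye term, 14, 10 and 8 without replicate 1, 2 and 3, and 0 with generalised least squares. The member counts moved as follows, with the count as reported in brackets, and the causes were not tested. Scaled arrays gave 1 call for atrazine against water at 2 h (0), 0 for atrazine against bentazon at 4 h (1) and 2 for the atrazine effect at 8 h less that at 1 h (5). Array weights gave 2 for atrazine against water at 2 h (0), 1 and 1 for bentazon against water at 1 and 2 h (0 and 0), and 2, 7 and 12 for atrazine against bentazon at 1, 4 and 8 h (0, 1 and 2). They gave 13, 7 and 2 for 8 h against 1 h in atrazine, bentazon and water leaflets (21, 4 and 0), and 8 and 8 for the atrazine and bentazon effects at 8 h less those at 1 h (5 and 3). The calls over all probes moved too: for atrazine against bentazon at 1, 4 and 8 h they were 2226, 4219 and 4729 with weights (997, 1849 and 1066), for 8 h against 1 h in water leaflets 1667 (287), and for the 2 effects over time 2327 and 2768 (611 and 851). For atrazine against water at 2 h they were 2099 (894), and for bentazon against water at 1 and 2 h 1828 and 2026 (571 and 1293). For 8 h against 1 h in atrazine and bentazon leaflets they were 5117 and 3831 (5680 and 2374). Restricting the test to the 18 members with all values gave 6 for atrazine against water at 4 h (10), 1 and 5 for bentazon against water at 2 and 4 h (0 and 8), 2 and 1 for atrazine against bentazon at 4 and 8 h (1 and 2), and 3 and 1 for the 2 effects over time (5 and 3). Here fewer members were tested. Solving each loop alone gave 6 for atrazine against water at 4 h (10), 3, 5 and 5 for bentazon at 2, 4 and 8 h (0, 8 and 10), 1, 0 and 0 for atrazine against bentazon at 2, 4 and 8 h (0, 1 and 2), 6 and 4 for 8 h against 1 h in atrazine and water leaflets (21 and 0), and 0 for the atrazine effect over time (5). Over all probes single loops gave 2298 and 1637 calls for 8 h against 1 h in atrazine and water leaflets (5680 and 287), 266 and 0 for atrazine against bentazon at 4 and 8 h (1849 and 1066), and 360 for the atrazine effect over time (611). A robust prior and generalised least squares each gave 1 for bentazon against water at 2 h (0). Without a dye term atrazine against bentazon at 4 h gave 0 (1), and the direct arrays alone gave 0 and 0 at 4 and 8 h (1 and 2), with 313 and 0 calls over all probes (1849 and 1066).

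Leaving out 1 replicate gave 8 to 10 calls for atrazine against water at 4 h and 4 (without replicate 1) to 9 at 8 h. For bentazon against water it gave 3 (without replicate 1, and again without replicate 2) to 8 at 4 h and 1 (without replicate 2) to 9 at 8 h. For atrazine against bentazon it gave 0 to 1 at 2 h, 0 to 1 at 4 h and 0 to 3 at 8 h. For 8 h against 1 h it gave 13 (without replicate 3) to 20 in atrazine leaflets and 0 (without replicate 1) to 4 in bentazon leaflets. The atrazine and bentazon effects over time gave 0 to 6 and 0 to 4, with 0 without replicate 1 and without replicate 2. Over all probes these effects gave 29 and 0 calls without replicate 1, and 97 and 273 without replicate 2 (611 and 851).

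With the replicate number as a block, the member counts were 10 and 8 for atrazine against water at 4 and 8 h, 8 and 10 for bentazon, 1 and 2 for atrazine against bentazon, 21, 3 and 0 for 8 h against 1 h in atrazine, bentazon and water leaflets, and 4 and 3 for the effects over time. No count moved by over 1.5 times, and 1 spot-set call was lost, CHR1 Gm02517cDNA18kA for atrazine against bentazon at 4 h (adjusted p = 0.0593).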
